A study of Mus musculus with 8 samples.

Results

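The lysosomal genes described here are 54 genes whose products degrade macromolecules, form the lysosomal membrane or acidify the lysosome. They were chosen by symbol from lysosome biology rather than by their values, although earlier results of these data were known. Each symbol matched 1 of the 37310 rows of the deposited count table, and all 54 passed the filter on low counts with 14537 tested genes. They comprised 10 proteases, 10 glycosidases, 4 sulfatases, 6 lipid hydrolases with a thioesterase among them, 4 soluble cofactors, 7 membrane proteins and 13 parts of the proton pump.

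The RNA came from mouse alveolar macrophages, the resident phagocytes of the air spaces, in 4 groups of 2 libraries. Expanded cells (exAM) were C57BL/6 alveolar macrophages kept for 2 months in culture and collected unsorted. Transplanted expanded cells (texAM) were cultured cells given through the trachea to C57Bl/6-Ly5.1 mice and recovered from lung 4 months later. Transplanted cells (tAM) were C57BL/6 alveolar macrophages recovered 4 months after transplantation, with no expansion named in their labels. Host cells (HostAM) were the alveolar macrophages of C57Bl/6-Ly5.1 mice, and the labels do not say whether those mice had received cells or saline. The 3 lung groups were sorted as SiglecF+ CD11c+ cells that carried CD45.2 (texAM, tAM) or CD45.1 (HostAM), the surface allele that separates donor from host. The mice were wild type and 8 weeks old when used as donors or recipients, and RNA of 3 mice or cultures was pooled for each library. The length of culture before transplantation is not stated for texAM.

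Lysosomes receive hydrolases that are marked with mannose 6-phosphate in the Golgi and sorted through endosomes. Most of these enzymes work best at acid pH, which a rotary ATP-driven proton pump maintains. Transcription factors of the MiT/TFE family, TFEB among them, bind a short E-box found in many lysosomal promoters, and alveolar macrophages depend on lysosomes to degrade surfactant and inhaled material.

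Promoter windows from RefSeq (GRCm38.p6), which run from 250 bases before to 50 bases after the annotated start, were matched for 47 of the 54 genes. The letters TCACGTG, the core of the E-box that TFEB binds, were searched on both strands, and the palindrome that holds the letters on both strands was counted as 1 site. They occurred in 13 of the 47 promoters (27.7%), against 1160 of 27025 genes (4.29%) with a window of the same length. The shorter letters CACGTG, which every such site contains, occurred in 15 promoters (31.9%), against 8.09% of all genes. The 13 genes with TCACGTG were Ctsa, Ctsd, Gla, Glb1, Gaa, Naglu, Arsa, Sgsh, Lamp1, Mcoln1, Atp6v1a, Atp6v0b and Atp6v0d1. Lamp1 held 4 sites, which began 62, 45, 28 and 16 bases before the start. A match is a description of the letters and shows no binding.

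The 5 promoters below are shown because 4 of them belong to the genes with a site whose counts were higher in cultured cells on both scales used here, and the fifth, of the calcium channel gene Mcoln1, belongs to a gene with sites that was not. Capitals mark the searched letters, including the palindrome's last base where it is present. The windows lie at chrX:134600956-134601255 (minus strand) for Gla, chr11:101069844-101070143 (plus strand) for Naglu, chr11:119355461-119355760 (minus strand) for Sgsh, chr16:44139210-44139509 (minus strand) for Atp6v1a and chr8:3500269-3500568 (plus strand) for Mcoln1.
Gla: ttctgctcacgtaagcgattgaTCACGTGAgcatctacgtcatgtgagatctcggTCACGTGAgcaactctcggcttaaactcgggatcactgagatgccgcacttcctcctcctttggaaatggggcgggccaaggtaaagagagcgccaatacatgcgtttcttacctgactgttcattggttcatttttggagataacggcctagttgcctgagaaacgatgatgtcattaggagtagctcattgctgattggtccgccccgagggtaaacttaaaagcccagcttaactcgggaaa
Naglu: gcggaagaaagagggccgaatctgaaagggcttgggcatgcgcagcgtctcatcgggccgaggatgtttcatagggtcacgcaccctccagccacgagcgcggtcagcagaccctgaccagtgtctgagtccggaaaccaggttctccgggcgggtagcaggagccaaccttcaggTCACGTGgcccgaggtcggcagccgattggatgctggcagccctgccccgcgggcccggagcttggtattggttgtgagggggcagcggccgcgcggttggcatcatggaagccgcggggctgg
Sgsh: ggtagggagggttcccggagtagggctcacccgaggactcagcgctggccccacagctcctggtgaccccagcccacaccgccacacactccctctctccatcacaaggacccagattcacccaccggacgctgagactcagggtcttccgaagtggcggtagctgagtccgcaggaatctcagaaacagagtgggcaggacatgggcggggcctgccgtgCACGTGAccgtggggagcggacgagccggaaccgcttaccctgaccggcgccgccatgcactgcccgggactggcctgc
Atp6v1a: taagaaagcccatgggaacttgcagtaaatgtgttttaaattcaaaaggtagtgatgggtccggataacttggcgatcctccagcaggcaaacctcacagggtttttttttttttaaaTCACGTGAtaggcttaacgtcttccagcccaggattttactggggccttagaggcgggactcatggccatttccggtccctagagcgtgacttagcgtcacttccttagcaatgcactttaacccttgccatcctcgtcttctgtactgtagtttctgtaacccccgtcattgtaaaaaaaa
Mcoln1: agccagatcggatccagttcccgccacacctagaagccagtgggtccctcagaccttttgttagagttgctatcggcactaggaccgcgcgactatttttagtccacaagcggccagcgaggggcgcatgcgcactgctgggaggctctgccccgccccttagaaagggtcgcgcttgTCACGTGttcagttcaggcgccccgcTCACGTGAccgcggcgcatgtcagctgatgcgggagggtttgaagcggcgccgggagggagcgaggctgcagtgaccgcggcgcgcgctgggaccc
The sites of Gla began 228 and 195 bases before the annotated start, and those of Mcoln1 72 and 46 bases before it. Naglu, Sgsh and Atp6v1a each had 1 site, which began 74, 29 and 132 bases before the start.

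Library totals ranged from 6546272 counts (exAM 1) to 9154128 counts (texAM 1), and the 2 exAM libraries were the smallest. The alveolar macrophage markers, 12 in all, were present in every group. Their summed level was 4014 to 4735 CPM (counts scaled to a common library size) in exAM and 3219 to 3776 CPM in the lung libraries. The single markers were divided: 6 were higher and 2 lower in exAM than tAM on scaled counts (edgeR adjusted p under 0.05). On the counts as deposited, 1 was higher and 4 were lower. Genes of lung epithelium summed to 248 to 555 CPM in the lung libraries and to 2.78 to 7.2 CPM in exAM, where 6 of 9, Sftpc and Scgb3a2 among them, had 0 counts in both libraries. Lymphocyte genes summed to 15.2 to 119 CPM in the lung libraries and to at most 0.172 CPM in exAM, where 6 of 7 were at 0 counts. Red cell and platelet genes reached 42.8 to 75.1 CPM in the lung libraries and at most 0.858 CPM in exAM. Dendritic cell genes summed to 94.2 to 181 CPM in the lung libraries and to 53.3 to 74.3 CPM in exAM, with Flt3, Ccr7 and Cd209a at 0 counts there. Of the 6 genes, 1 was higher and 4 lower in exAM than tAM (edgeR adjusted p under 0.05). In the other direction, genes of monocytes and other lung macrophages summed to 60.7 to 134 CPM in the lung libraries and to 215 to 231 CPM in exAM. Most of them did not follow this sum. Of the 8 genes, 2 were higher and 5 lower in exAM than tAM (edgeR adjusted p under 0.05), with a median log2 change of -3.16. Osteoclast genes, several of which encode lysosomal or fusion proteins, summed to 378 to 396 CPM in the lung libraries and to 666 to 864 CPM in exAM. Much of this sum came from the hydrolase genes Ctsk (mean 221 CPM in tAM, 431 in exAM) and Acp5 (161 and 213). Of the 7 osteoclast genes tested, 6 were higher and 0 lower in exAM than tAM, and Acp5 was not called (edgeR adjusted p = 0.079). Neutrophil genes summed to 57.3 to 187 CPM in the lung libraries and to 155 to 205 CPM in exAM, where 3 of 6 were at 0 counts. Of the 3 tested, 2 were higher and 1 lower in exAM than tAM. Genes of stroma and endothelium summed to 1.16 to 7.53 CPM in the lung libraries and to 49.4 to 59.6 CPM in exAM, where 3 of 6 were at 0 counts. Of the 3 tested there, 2 were higher and 0 lower. The part of other cell types in the results on lysosomal genes was not tested. In bulk samples, fewer cells of a type and less RNA per cell cannot be told apart.

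Counts of some lysosomal genes with the most counts per base of transcript were almost the same in every library. Cd68, a glycoprotein of macrophage lysosomes, had 2261 and 2243 counts in tAM, 2265 and 2274 in texAM, 2263 and 2261 in HostAM, and 2267 and 2285 in exAM. Ctsd, the aspartic protease cathepsin D, had 3797 and 3809, 3789 and 3777, 3840 and 3843, and 3799 and 3775 counts in the same order of groups. The highest count of each of these genes exceeded its lowest by under 2%, while the largest library total was 1.398 times the smallest. Across the 14025 tested genes with a known transcript length, no count in any library exceeded 1.941 per base of the gene's longest annotated transcript. Cd68 (1.841, mean of 8 libraries) and Ctsd (1.788) lay close to that level. Exons of Ctsd overlap another gene on the same strand over 34.4% of their length, so its count is uncertain.

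The spread between libraries narrowed with counts per base. In genes below 0.25 counts per base, the highest of the 8 counts was 3.692 times the lowest (median of 11118 genes), and for the 9 lysosomal genes among them it was 1.885 times. In genes between 1.5 and 2 counts per base, that ratio was 1.108 (median of 51 genes), and for the 6 lysosomal genes there, Ctsd, Ctss, Psap, Grn, Lamp1 and Cd68, it was 1.062, with Ctss (1.216) the widest.

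This bears on every comparison with exAM. After scaling by effective library size, a count that is equal in all libraries is assigned a log2 change of 0.43 in exAM over tAM, 0.53 in exAM over HostAM and -0.58 in texAM over exAM. Among the 51 genes of the top range, 86.3% were called higher in exAM than tAM on the scaled counts and 0 lower, and on the counts as deposited 1.96% were called higher and 9.8% lower. Each gene is therefore given on both scales, with scaled counts as the main one. A call on both scales means that the deposited counts themselves differed between the groups and that the scaled counts differed in the same direction. Leaving out the scaling moves genes toward lower in exAM. For a gene already lower in exAM on scaled counts, the deposited counts are therefore no separate check.

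**Figure D1:**
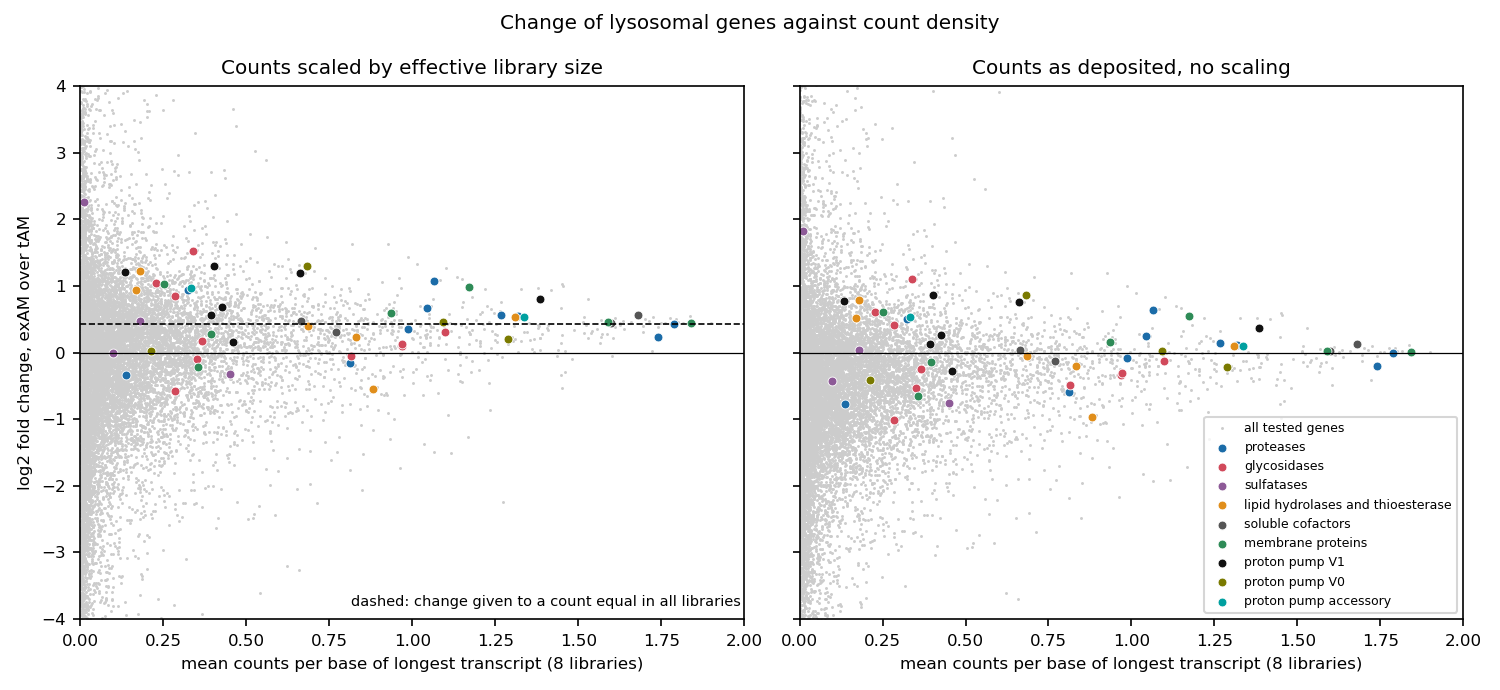
Log2 fold change of exAM over tAM (vertical axis) against the mean count per base of the longest transcript over 8 libraries (horizontal axis), for all tested genes with a known length (grey) and the 54 lysosomal genes (coloured by class). Left, scaled counts, with a dashed line at the 0.43 that an equal count is assigned; right, counts as deposited; the vertical axis ends at 4 and -4, and grey genes beyond it are not drawn. The genes toward the right converge on the dashed line in the left panel and on 0 in the right panel.

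In cultured cells, 37 of the 54 lysosomal genes were called higher than in tAM and 3 lower on scaled counts (edgeR quasi-likelihood test, Benjamini-Hochberg adjusted p under 0.05), with 14 not called. Of all tested genes, 21.5% were called higher and 23.2% lower in this comparison. The share called higher rose with counts per base. Below 0.25 it was 18%, from 0.25 to 0.5 it was 34.3%, and from 0.5 to 1 it was 40.6%. From 1 to 1.5 it was 46.9%, and from 1.5 to 2 it was 86.3%. In the same order of ranges, 6 of 9, 9 of 15, 7 of 13, 10 of 11 and 5 of 6 lysosomal genes were called higher. Most tested genes lay in the lowest range, so 21.5% is a low background for the 54 genes. The median log2 change was 0.46 over the 54 genes, near the 0.43 of an equal count, and -0.09 over all tested genes. On the counts as deposited, edgeR called 14 lysosomal genes higher and 11 lower. The background there was 9.43% of all genes higher and 36.3% lower, and the median of the 54 genes was 0.03.

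The genes higher on both scales numbered 14, and they spanned the classes: the proteases Ctsb and Ctsl, the glycosidases Gla and Naglu, the sulfatase Sgsh, the galactosylceramidase Galc, the membrane proteins Lamp2 and Cd63, and the pump genes Atp6v1a, Atp6v1b2, Atp6v1c1, Atp6v1h, Atp6v0a1 and Atp6ap2. Against HostAM, 12 of these, without Naglu and Sgsh, were also higher on both scales, but the same exAM libraries entered both comparisons. The genes lower on both scales were Manba, Ids and Ppt1. A further 23 genes were higher on the scaled counts only, and 8 genes (Ctsf, Ctsh, Gusb, Hexa, Neu1, Fuca1, Mcoln1, Atp6v0c) were lower on the deposited counts only. Ctss, Gaa, Arsa, Asah1, Atp6v1f and Atp6v0b were called on neither scale.

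Without any model, both exAM counts lay above all 6 lung counts for 18 of the 54 genes (33.3%), against 10.4% of all tested genes, and below them for 18 genes (33.3%), against 47.7%. In CPM, both exAM values lay above all 6 lung values for 40 genes (74.1%), against 28.1% of all genes. They lay below for 4 genes (7.41%), Manba, Ids, Ppt1 and Mcoln1, against 29.7%.

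**Figure D2:**
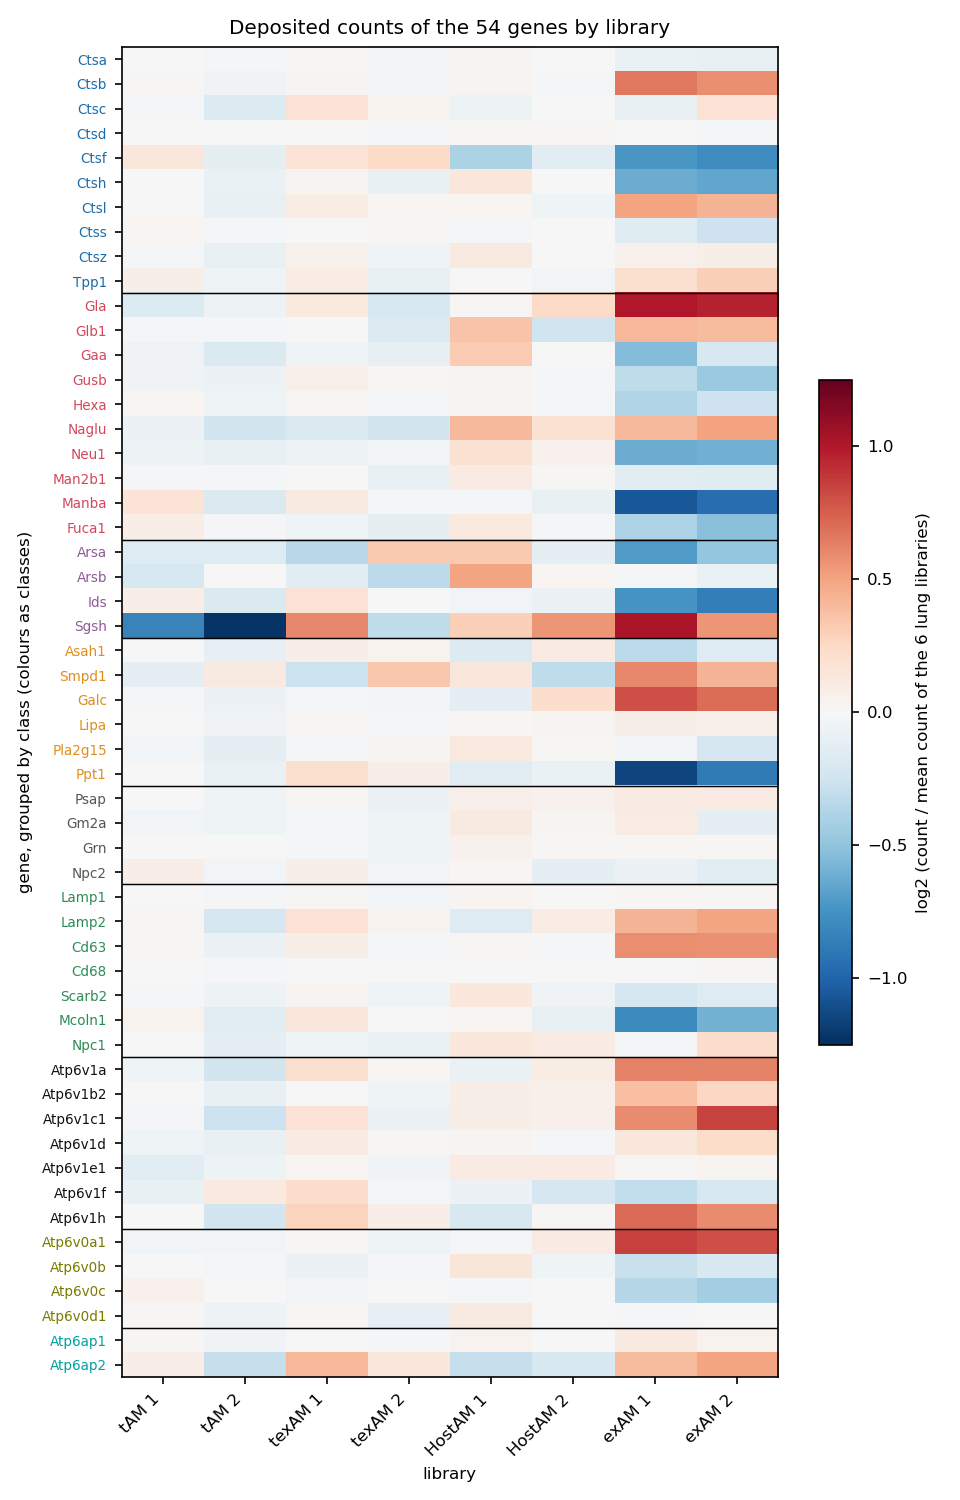
Heat map of the deposited counts of the 54 lysosomal genes (rows, grouped by class) in the 8 libraries (columns), as log2 of the count over the mean count of the 6 lung libraries. The exAM columns hold most of the strongly red and blue cells, for example Gla (1720 and 1680 counts) and Ppt1 (1172 and 1403 counts), while the rows of Ctsd, Lamp1, Cd68 and Grn are nearly white throughout.

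Of the proteases, which cut proteins within the lysosome, 7 of 10 were higher and 0 lower in exAM than tAM on scaled counts, and 2 were higher and 2 lower on deposited counts. Ctsb, the cysteine protease cathepsin B (chr14:63122462-63145923), had 4502 and 4309 counts in tAM, 4569 and 4362 in texAM, 4563 and 4407 in HostAM, and 7024 and 6667 in exAM. The 6 lung libraries lay close together and both exAM libraries were far above them. The scaled log2 change from tAM to exAM was 1.07 ± 0.09 (SE, n = 2 libraries per group; edgeR adjusted p = 6.9e-06), and it was 0.64 on deposited counts. Ctsl, the cysteine endopeptidase cathepsin L (chr13:64359337-64370890), had 1823 and 1711 counts in tAM, 1940 and 1853 in texAM, 1860 and 1752 in HostAM, and 2558 and 2451 in exAM. Its exAM counts again did not overlap those from lung, and its log2 change was 0.94 ± 0.10 (edgeR adjusted p = 3.45e-05) scaled and 0.50 as deposited. Exons of Ctsb and Ctsl overlap other genes over 12.8% and 26.8% of their length, and because strand use in the counting is not given, reads from those genes cannot be told apart.

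Tpp1 (chr7:105744811-105752235), a tripeptidyl peptidase, had 3869 and 3526 counts in tAM and 4226 and 4516 in exAM. Its scaled log2 change was 0.67 ± 0.07 (edgeR adjusted p = 5.21e-05), but the deposited counts gave 0.24 (edgeR adjusted p = 0.0588). The remaining proteases called on scaled counts were Ctsc, Ctsz, Ctsd and Ctsa, with log2 changes of 0.57, 0.55, 0.43 and 0.35, none of which was called on deposited counts. The scaled call of Ctsa was lost without tAM 1 (edgeR adjusted p = 0.0718). Of these, Ctsa, which protects other hydrolases as well as cutting peptides, had lower deposited counts in both exAM libraries (3442 and 3413) than in any lung library (lowest 3570). Ctsh and Ctsf, 2 cysteine proteases, had lower deposited counts in exAM: 1592 and 1553 for Ctsh against 2445 and 2308 in tAM, and 193 and 185 for Ctsf against 352 and 294. On scaled counts neither was called, with edgeR adjusted p = 0.178 and 0.216. Antigen-processing cathepsin S (Ctss) had 2192 and 2037 counts in exAM against 2476 and 2409 in tAM and was called on neither scale with all libraries, although scaled counts gave a call without exAM 2 (0.0271).

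**Figure D3:**
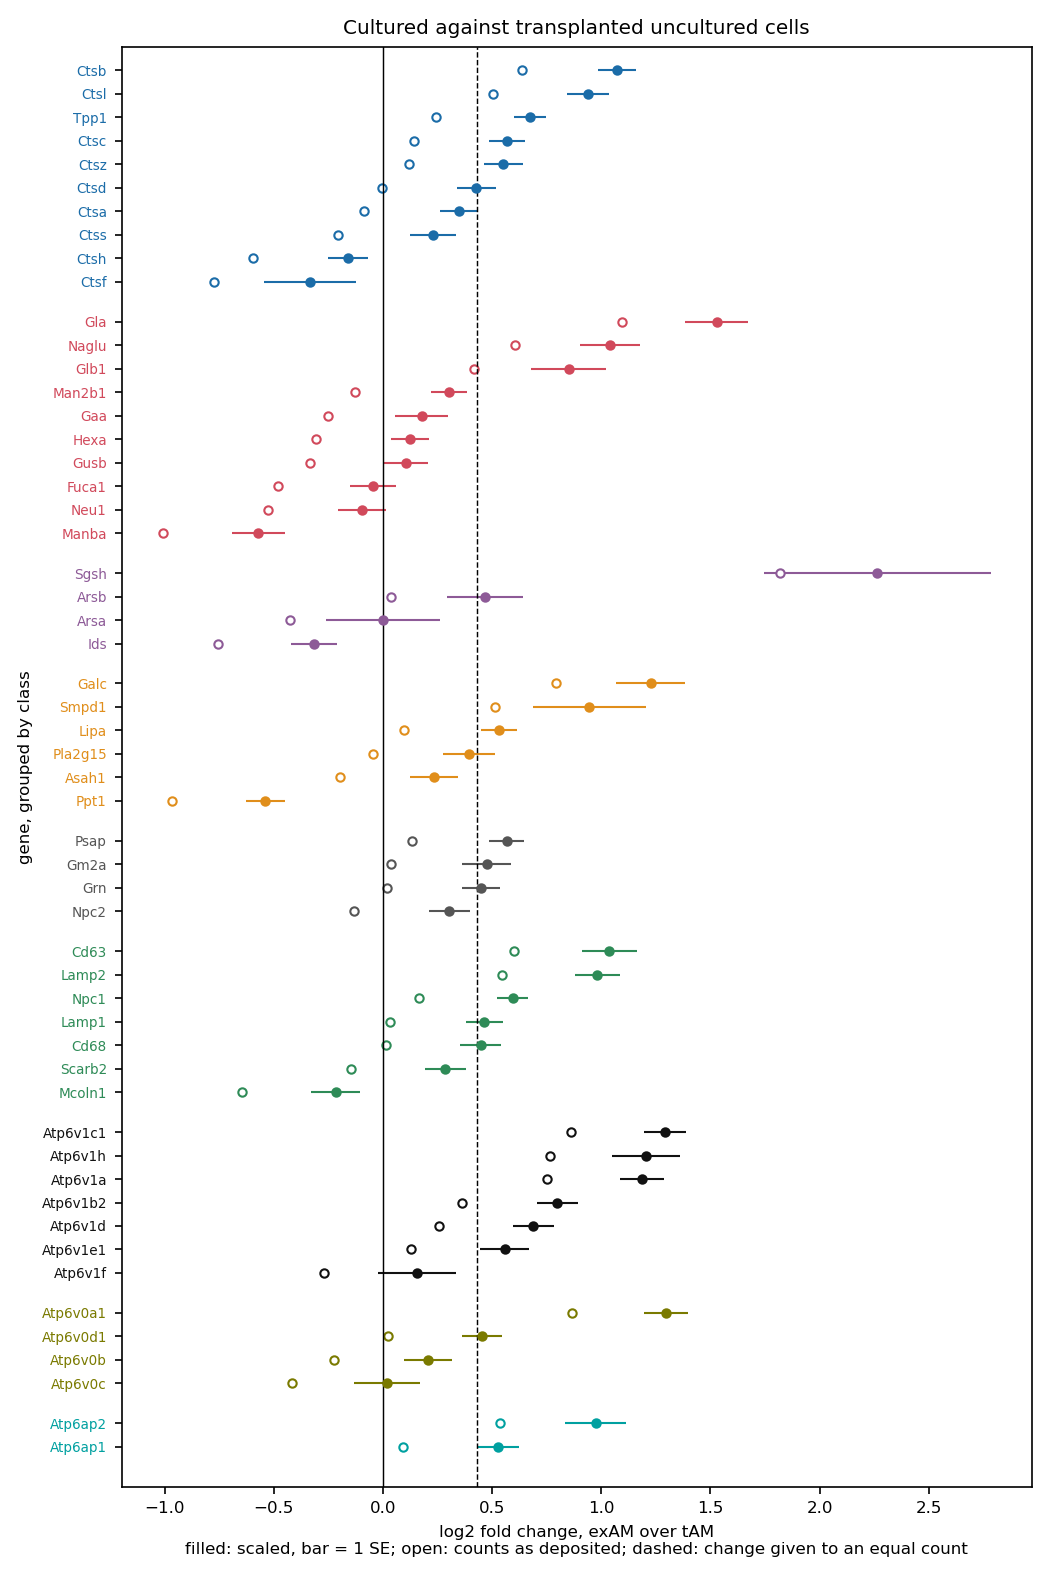
Log2 fold change of exAM over tAM for each of the 54 lysosomal genes, grouped by class. Filled points are scaled counts with bars of 1 SE (n = 2 libraries per group), open points are counts as deposited, and the dashed line is the 0.43 assigned to an equal count; many filled points lie near it, while Gla, Galc, Sgsh and several pump genes lie well to its right and Manba and Ppt1 far to its left.

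The glycosidases, which remove sugars from glycoproteins, glycolipids and glycosaminoglycans, did not move one way. On scaled counts 4 of 10 were higher and 1 lower, with a median log2 change of 0.15, and on deposited counts 2 were higher and 5 lower. Gla (chrX:134588149-134601125), the α-galactosidase deficient in Fabry disease, had 767 and 823 counts in tAM, 940 and 751 in texAM, 868 and 1020 in HostAM, and 1720 and 1680 in exAM. The lowest exAM count was well above the highest from lung. On scaled counts Gla differed 2.88-fold (log2 change 1.53 ± 0.14, edgeR adjusted p = 2.02e-05), and the deposited counts gave a log2 change of 1.10. Naglu (chr11:101070012-101077672), which acts on heparan sulfate, had 505 and 453 counts in tAM, 468 and 455 in texAM, 704 and 608 in HostAM, and 706 and 753 in exAM. Here HostAM lay between the transplanted groups and exAM, and the deposited counts of HostAM and exAM nearly met. Against tAM the log2 change was 1.04 ± 0.14 (edgeR adjusted p = 0.000194) scaled and 0.61 as deposited, whereas against HostAM it was 0.69 scaled and 0.15 as deposited, the latter not called.

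Glb1 (chr9:114401076-114474898), a β-galactosidase, had 732 and 732 counts in tAM, 742 and 653 in texAM, 943 and 622 in HostAM, and 983 and 972 in exAM. The 2 HostAM counts lay farther apart than the mean counts of tAM and exAM. The tAM to exAM log2 change was 0.85 ± 0.17 (edgeR adjusted p = 0.00267) scaled and 0.42 (edgeR adjusted p = 0.104) as deposited. The α-mannosidase Man2b1 had a scaled log2 change of 0.30 and a deposited one of -0.13, and its scaled call was lost without tAM 1 (edgeR adjusted p = 0.123) or exAM 1 (0.0731). In contrast, Manba, the β-mannosidase, had 1349 and 1056 counts in tAM, 1300 and 1182 in texAM, 1187 and 1129 in HostAM, and 576 and 619 in exAM. Both exAM libraries were far below the 6 lung libraries, with a log2 change of -0.57 ± 0.12 (edgeR adjusted p = 0.0034) scaled and -1.01 as deposited. The sialidase Neu1, the hexosaminidase Hexa, the glucuronidase Gusb and the fucosidase Fuca1 had log2 changes between -0.10 and 0.12 on scaled counts and between -0.53 and -0.31 on deposited counts, where all 4 were called lower. Gaa, the acid α-glucosidase of glycogen breakdown, had 968 and 1226 counts in exAM and 1367 and 1243 in tAM and was called on neither scale.

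Of the sulfatases, which remove sulfate groups so that glycosidases can proceed, 2 of 4 were higher and 1 lower on scaled counts. Sgsh, the sulfamidase of heparan sulfate breakdown (chr11:119343425-119355536), had the lowest counts of the 54 genes, with 21 and 16 in tAM, 57 and 30 in texAM, 46 and 55 in HostAM, and 76 and 55 in exAM. Its exAM counts were clear of tAM but met those of texAM and HostAM. The log2 change from tAM was 2.27 ± 0.52 (edgeR adjusted p = 0.00529) scaled and 1.82 as deposited, while against HostAM it was 0.91 ± 0.49 (edgeR adjusted p = 0.15). An opposite-strand gene, Card14, overlaps 21.6% of its exon bases, so its count is uncertain. Ids, the iduronate sulfatase (chrX:70343069-70365084), had 2659 and 2208 counts in tAM, 2840 and 2495 in texAM, 2452 and 2380 in HostAM, and 1501 and 1378 in exAM. All lung libraries were above both exAM libraries, with a log2 change of -0.32 ± 0.11 (edgeR adjusted p = 0.0342) scaled and -0.76 as deposited. The scaled call was lost without tAM 1 (edgeR adjusted p = 0.21), without exAM 2 (0.249) and without texAM 1 or 2 (0.056 and 0.0549).

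Arsb (chr13:93771630-93943016), which acts on dermatan sulfate, had 639 and 736 counts in tAM, 663 and 585 in texAM, 1027 and 742 in HostAM, and 719 and 691 in exAM. Its deposited counts overlapped between exAM and tAM (log2 change 0.04). The scaled log2 change of 0.47 ± 0.17 (edgeR adjusted p = 0.0493) lost its call without tAM 1 (0.274), exAM 1 (0.218), exAM 2 (0.0623), texAM 1 (0.0693) or texAM 2 (0.0695). Overlapping genes cover 39.9% of its exon bases. Arsa, the arylsulfatase of sulfatide breakdown, had 230 and 270 counts in exAM and 336 and 336 in tAM, with a scaled log2 change of 0.00 ± 0.26.

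Among the enzymes of lipid breakdown, 4 of 6 were higher and 1 lower on scaled counts. Galc (chr12:98202294-98259459), the galactosylceramidase deficient in Krabbe disease, had 676 and 651 counts in tAM, 677 and 667 in texAM, 632 and 795 in HostAM, and 1190 and 1106 in exAM. Both exAM counts stood clear of the lung counts, with a log2 change of 1.23 ± 0.16 (edgeR adjusted p = 0.000162) scaled and 0.79 as deposited. Ppt1 (chr4:122836242-122859175), which removes palmitate from proteins, moved the other way: it had 2594 and 2444 counts in tAM, 2982 and 2742 in texAM, 2347 and 2451 in HostAM, and 1172 and 1403 in exAM. Its log2 change was -0.54 ± 0.09 (edgeR adjusted p = 0.000732) scaled and -0.97 as deposited. Smpd1 (chr7:105554360-105558389), the acid sphingomyelinase, had 337 and 398 counts in tAM, 306 and 464 in texAM, 407 and 295 in HostAM, and 556 and 493 in exAM. Although both exAM counts were above those from lung, the lung counts were widely spread. For Smpd1 the log2 change was 0.95 ± 0.26 (edgeR adjusted p = 0.0136) scaled and 0.51 (edgeR adjusted p = 0.117) as deposited, and the scaled call was lost without tAM 1 (0.0945) or exAM 1 (0.092). Lipa, the acid lipase that frees cholesterol from its esters, and Pla2g15, a phospholipase of surfactant breakdown, had scaled log2 changes of 0.53 and 0.39 and deposited ones of 0.10 and -0.05. The call of Pla2g15 was lost without tAM 1 (edgeR adjusted p = 0.102), tAM 2 (0.0758) or exAM 1 (0.158). The acid ceramidase Asah1 was called on neither scale with all libraries, but on scaled counts without HostAM 1 (0.0484) or HostAM 2 (0.0423).

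All 4 soluble cofactors were higher on scaled counts and none on deposited counts. Psap (chr10:60277627-60302597), the precursor of the saposins that lift lipids to their hydrolases, had 4356 and 4220 counts in tAM and 4704 and 4702 in exAM. Scaled counts gave Psap a log2 change of 0.57 ± 0.08 (edgeR adjusted p = 0.000274), and deposited counts one of 0.13 (edgeR adjusted p = 0.168). Gm2a (chr11:55098115-55113029), a ganglioside activator, had 2683 and 2652 counts in tAM and 2925 and 2549 in exAM, and so overlapped between the groups as deposited. Grn (chr11:102430315-102437048), progranulin, had 3721 and 3730 counts in tAM and 3763 and 3772 in exAM, a difference of 0.02 on the log2 scale. The scaled log2 changes of Gm2a and Grn were 0.47 ± 0.11 and 0.45 ± 0.09 (edgeR adjusted p = 0.00626 and 0.00186), close to that of an equal count. Npc2, which passes cholesterol to Npc1, had a log2 change of 0.30 scaled and -0.13 as deposited. The scaled calls were lost for Gm2a without tAM 1 (edgeR adjusted p = 0.0508), and for Npc2 without tAM 1 (0.093), tAM 2 (0.1) or exAM 1 (0.127).

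Of the membrane proteins, 6 of 7 were higher on scaled counts, and 2 were higher and 1 lower on deposited counts. Cd63 (chr10:128900989-128912822), a tetraspanin of late endosomes and lysosomes, had 656 and 618 counts in tAM, 683 and 643 in texAM, 658 and 638 in HostAM, and 970 and 963 in exAM. Its lung libraries varied little and both exAM libraries were above them, with a log2 change of 1.04 ± 0.13 (edgeR adjusted p = 0.000107) scaled and 0.60 as deposited. Lamp2 (chrX:38401357-38456454), a major glycoprotein of the lysosomal membrane, had 3908 and 3348 counts in tAM, 4373 and 3987 in texAM, 3452 and 4127 in HostAM, and 5176 and 5425 in exAM. Its log2 change was 0.98 ± 0.10 (edgeR adjusted p = 4.59e-05) scaled and 0.55 as deposited. Lamp1, the related glycoprotein, had 3511 and 3490 counts in tAM and 3575 and 3573 in exAM, at 1.59 counts per base. The 2 related proteins therefore differed in these counts, although Lamp1 lay in the range where counts were nearly equal in all libraries and Lamp2 (1.172 counts per base) did not.

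Npc1, which exports cholesterol from lysosomes, had 5297 and 4869 counts in tAM, 5111 and 4981 in texAM, 5789 and 5679 in HostAM, and 5239 and 6158 in exAM. These counts overlapped as deposited (log2 change 0.16), and the scaled log2 change was 0.59 ± 0.07 (edgeR adjusted p = 0.000107). Mcoln1, whose promoter holds 2 sites, had 1173 and 1033 counts in tAM, 1256 and 1132 in texAM, 1156 and 1061 in HostAM, and 652 and 755 in exAM. Both exAM counts were below every lung count. Mcoln1 had a log2 change of -0.65 as deposited (edgeR adjusted p = 0.00517) and -0.22 ± 0.11 scaled (edgeR adjusted p = 0.132). Scarb2, the receptor that carries glucocerebrosidase to lysosomes, had 1652 and 1708 counts in exAM and 1888 and 1832 in tAM. It was nevertheless called higher on scaled counts, with a log2 change of 0.29 ± 0.09 (edgeR adjusted p = 0.0287). That call was lost without tAM 1 (0.156), tAM 2 (0.0809), exAM 1 (0.114), texAM 1 (0.0526) or texAM 2 (0.0534).

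The proton pump is built from a V1 part that hydrolyses ATP and a V0 part in the membrane that carries protons, and 10 of its 13 listed genes were higher in exAM than tAM on scaled counts and 0 lower. On deposited counts 6 were higher and 1 lower. Its median log2 change was 0.69 scaled and 0.26 as deposited, against 0.46 and 0.03 over all 54 genes.

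In V1, 6 of 7 genes were higher on scaled counts and 4 on both scales. Atp6v1c1 (chr15:38661933-38692446), a stator subunit that joins the parts, had 1681 and 1412 counts in tAM, 1931 and 1621 in texAM, 1796 and 1780 in HostAM, and 2570 and 3053 in exAM. Its log2 change was 1.29 ± 0.10 (edgeR adjusted p = 4.09e-06) scaled and 0.86 as deposited. Atp6v1h (chr1:5070018-5162529), a regulatory subunit, had 560 and 477 counts in tAM, 681 and 598 in texAM, 491 and 570 in HostAM, and 919 and 845 in exAM. In both genes every exAM count exceeded every lung count. Atp6v1h had a log2 change of 1.21 ± 0.16 (edgeR adjusted p = 0.000167) scaled and 0.77 as deposited. The catalytic subunit gene Atp6v1a had 2388 and 2114 counts in tAM, 2838 and 2516 in texAM, 2333 and 2638 in HostAM, and 3791 and 3786 in exAM, a log2 change of 1.19 scaled and 0.75 as deposited. Its partner Atp6v1b2, which forms the hexamer with it, had 3701 and 3450 counts in tAM and 4781 and 4403 in exAM, with 0.80 scaled and 0.36 as deposited. The stalk and stator genes Atp6v1d and Atp6v1e1 were higher on scaled counts only, at 0.69 and 0.56, and Atp6v1f was called on neither scale (0.15 ± 0.18 scaled).

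The V0 genes did not move together. Atp6v0a1 (chr11:101009452-101063719), whose product holds the proton path, had 2327 and 2324 counts in tAM, 2411 and 2297 in texAM, 2363 and 2560 in HostAM, and 4311 and 4157 in exAM. It had the largest log2 change of the listed pump genes, 1.30 ± 0.10 (edgeR adjusted p = 5.55e-06) scaled and 0.86 as deposited. The genes of the proton-carrying ring did not share this: Atp6v0c had 597 and 577 counts in tAM, 565 and 573 in texAM, 570 and 578 in HostAM, and 449 and 431 in exAM. Its log2 change was 0.02 ± 0.15 scaled and -0.42 as deposited, the latter called lower. Atp6v0b, the other ring gene, was called on neither scale, with 0.21 ± 0.11 scaled and -0.22 as deposited. Atp6v0d1, which links the ring to the stalk, had 1796 and 1709 counts in tAM and 1770 and 1786 in exAM, and was called on scaled counts only. Of the accessory genes, Atp6ap2, the prorenin receptor, had 752 and 581 counts in tAM, 944 and 776 in texAM, 582 and 622 in HostAM, and 935 and 999 in exAM. The exAM counts of Atp6ap2 met those of texAM 1 but not those of tAM or HostAM, and its log2 change from tAM was 0.97 scaled and 0.54 as deposited. Atp6ap1 was higher on scaled counts only (0.53, and 0.09 as deposited).

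**Figure D4:**
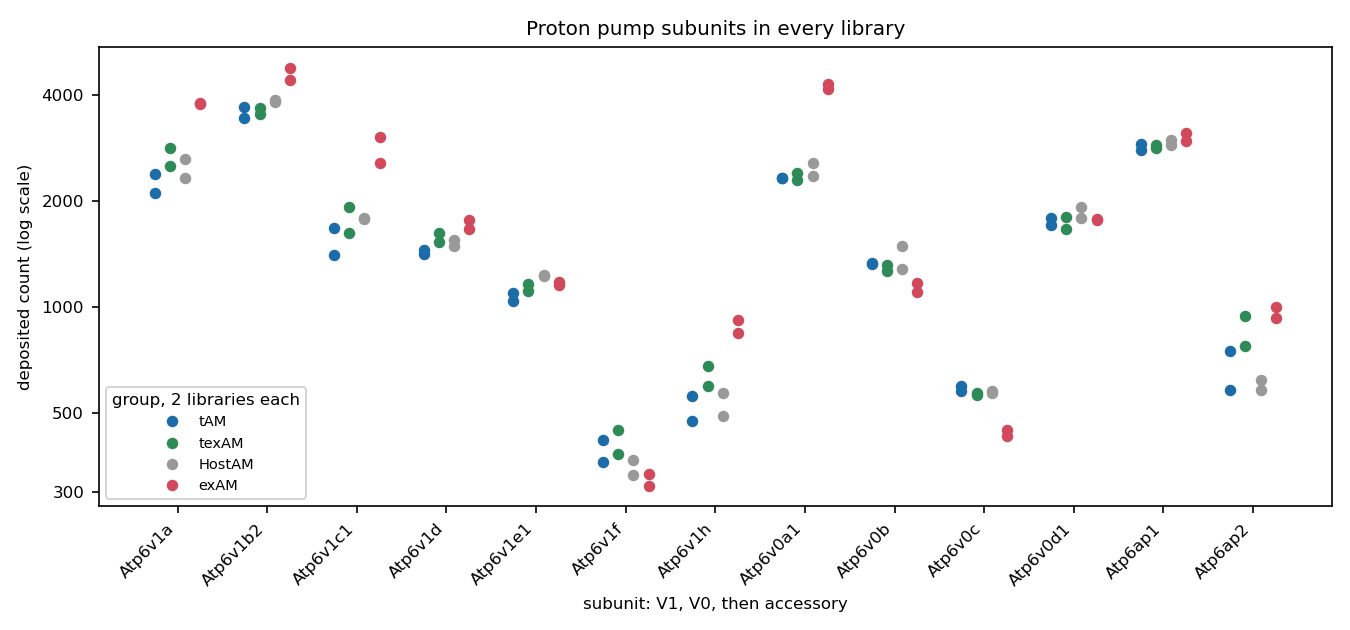
Deposited counts (log axis) of the 13 proton pump genes in each library, with 1 point per library and colour by group. For Atp6v0a1 the exAM libraries (4311 and 4157 counts) stand above all lung libraries, for Atp6v0c (449 and 431) they stand below, and for Atp6v0d1 the groups coincide.

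Against HostAM, cultured cells had 37 lysosomal genes higher and 2 lower on scaled counts, where 20.9% of all tested genes were higher and 23.3% lower. The share of all genes higher again rose with counts per base, from 17.1% below 0.25 to 94.1% from 1.5 to 2. On deposited counts 13 were higher and 12 lower, against 7.64% and 40.1% of all genes. This comparison shares the exAM libraries with the one against tAM. The largest differences were those of Gla (1.38 ± 0.14), Atp6v0a1 (1.31 ± 0.10), Atp6v1h (1.27 ± 0.16), Galc (1.22 ± 0.16) and Atp6ap2 (1.21 ± 0.14) among the genes called on both scales. The genes called lower were Manba (-0.42 ± 0.12) and Ppt1 (-0.37 ± 0.09), with edgeR adjusted p = 0.0164 and 0.00657. The scaled call of Manba was lost without HostAM 1 (0.0507), exAM 1 (0.0534) or exAM 2 (0.0786), and that of Ppt1 without HostAM 2 (0.05). Ids (-0.21 ± 0.11) was not called with all libraries but was without exAM 1 (0.0362).

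Between cultured cells and texAM, the comparison that asks how the genes stand after cultured cells have been in the lung, 39 lysosomal genes were lower in texAM and 3 higher on scaled counts, with 20.5% of all genes lower and 23.2% higher. The median log2 change was -0.61, near the -0.58 of an equal count. On deposited counts 13 were lower and 11 higher, against 6.58% and 43% of all genes. Of the 14 genes higher in exAM than tAM on both scales, 12 were lower in texAM than exAM on both scales. The exceptions were Atp6ap2, lower on scaled counts only (-0.75 ± 0.14), and Sgsh, which was called on neither scale (-1.19 ± 0.49, edgeR adjusted p = 0.0713). The largest falls were those of Gla (-1.59 ± 0.14), Atp6v0a1 (-1.43 ± 0.10), Galc (-1.35 ± 0.16), Atp6v1c1 (-1.24 ± 0.10) and Naglu (-1.24 ± 0.14). The 3 genes higher in texAM were Manba (0.48 ± 0.12), Ids (0.31 ± 0.11) and Ppt1 (0.58 ± 0.09). Each was also higher on deposited counts, the direction in which that scale moves genes in this comparison. On scaled counts the call of Manba was lost without texAM 1 (edgeR adjusted p = 0.0514) or exAM 2 (0.0565). That of Ids was lost without texAM 1 (0.173), texAM 2 (0.104), exAM 2 (0.318), tAM 1 (0.0541), tAM 2 (0.0531) or HostAM 2 (0.0577). This comparison uses the same exAM libraries as those above, so its directions are not independent of them.

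Between texAM and tAM, donor cells with and without expansion after the same time in the lung, 0 of the 54 genes were called in either direction by edgeR or DESeq2. In this comparison edgeR called 0.00688% of all tested genes and DESeq2 0.533%. By edgeR 1 lysosomal gene, Fuca1, had an unadjusted p under 0.05, as did 1139 of all 14537 tested genes. The log2 change lay within 0.3 of 0 for 53 of the 54 genes, with a median of -0.12 and a median SE of 0.10, and an equal count is assigned -0.14. Fuca1 had 2338 and 2169 counts in tAM and 2122 and 2035 in texAM (log2 change -0.26 ± 0.10, edgeR adjusted p = 0.604). The gene outside that range was Sgsh, with 1.07 ± 0.51 and an edgeR adjusted p of 0.651. The genes that stood apart in culture were close here: the log2 change of texAM over tAM was -0.06 ± 0.14 for Gla, -0.13 ± 0.10 for Atp6v0a1, -0.12 ± 0.09 for Ctsb, -0.10 ± 0.12 for Manba and 0.04 ± 0.09 for Ppt1. A p that misses the threshold does not show that the groups are alike.

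Against HostAM, texAM had 0 lysosomal genes called by edgeR, where 0.33% of all tested genes were called in either direction. By edgeR 6 had an unadjusted p under 0.05 (Gaa, Naglu, Arsb, Ppt1, Npc1 and Atp6ap2), as did 1914 of all 14537 tested genes. DESeq2, which called 2.7% of the genes it tested, called 1 lysosomal gene, Naglu, as lower in texAM (DESeq2 adjusted p = 0.049, edgeR adjusted p = 0.13), with a log2 change of -0.55 ± 0.14. Arsb had a log2 change of -0.55 ± 0.17 and Atp6ap2 one of 0.46 ± 0.14, at edgeR adjusted p = 0.214 and 0.201. For 50 of the 54 genes the log2 change lay within 0.3 of 0. Between tAM and HostAM, 0 genes were called by edgeR or DESeq2, where edgeR called 0.0413% of all genes and DESeq2 1.39%. Here 2 lysosomal genes had an unadjusted p under 0.05 by edgeR, Naglu (-0.35 ± 0.14) and Sgsh (-1.35 ± 0.51, edgeR adjusted p = 0.405), as did 1457 of all 14537 tested genes. These 3 comparisons share libraries. The host and donor cells also differ in strain, so a strain difference and a difference of origin cannot be told apart.

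**Figure D5:**
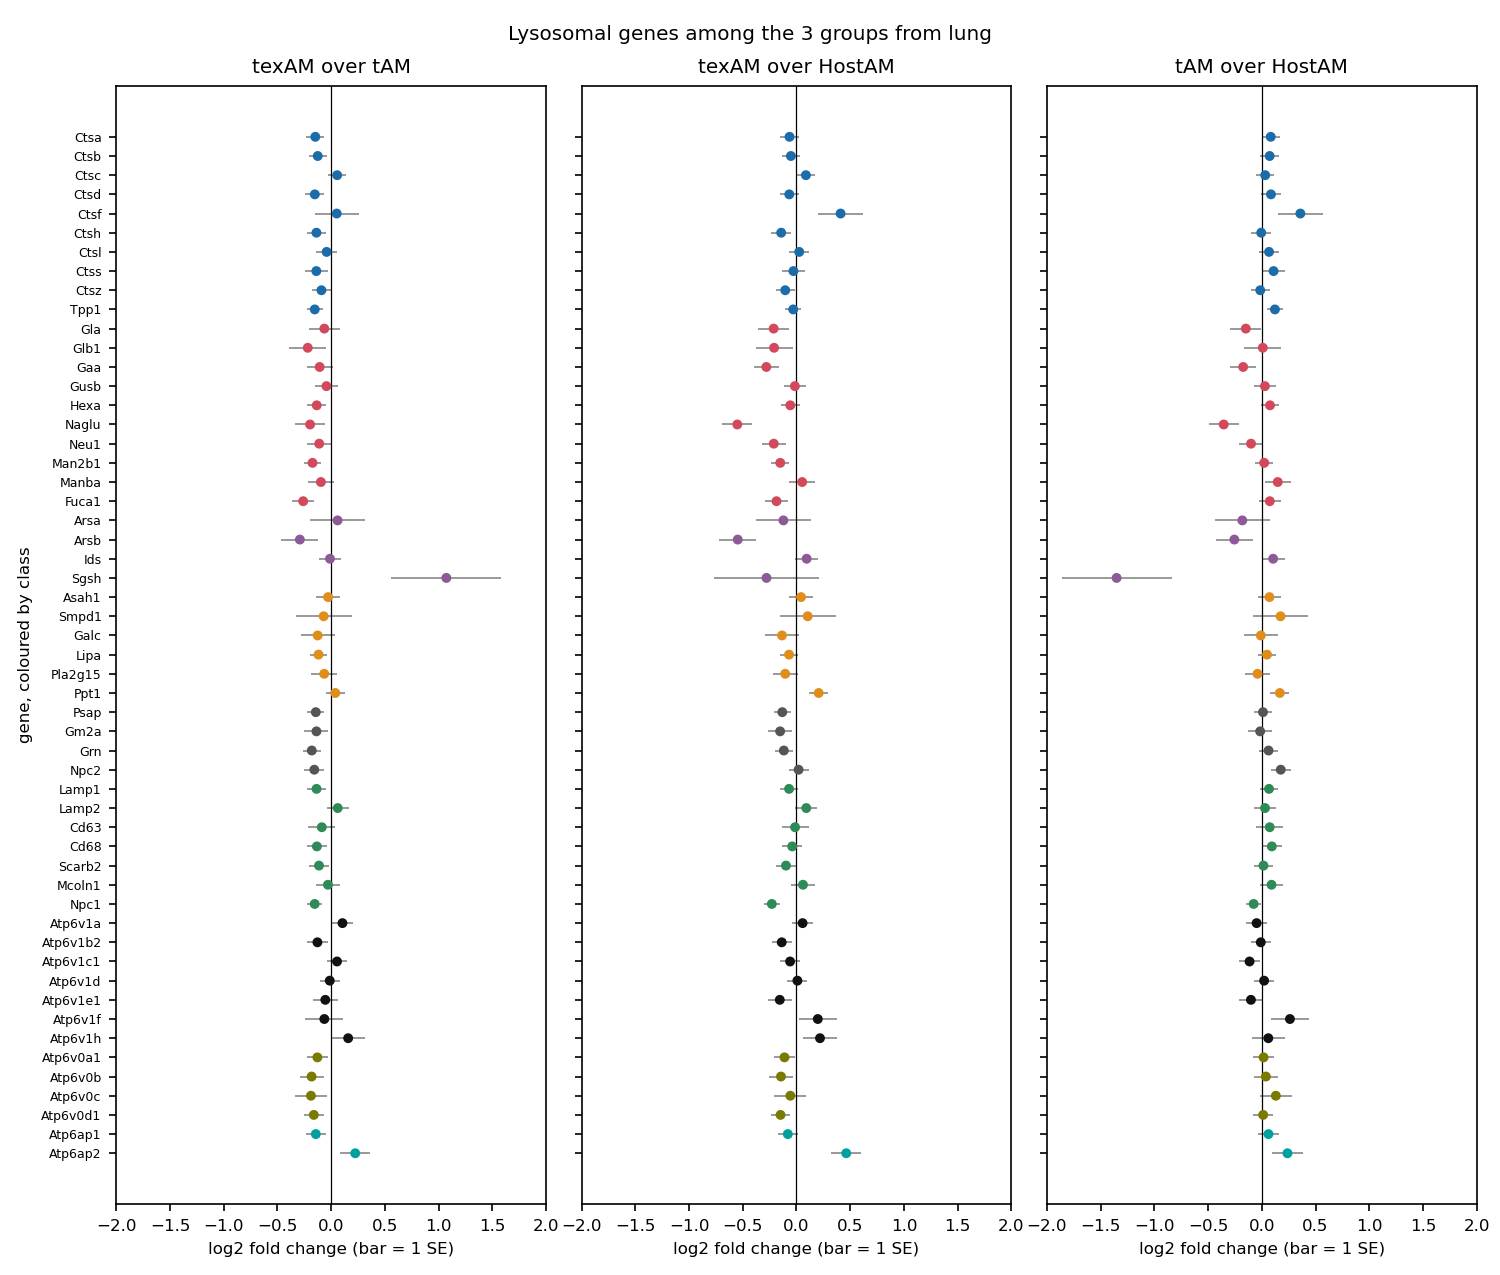
Log2 fold change (points) with bars of 1 SE for the 54 lysosomal genes in the 3 comparisons among groups from lung, n = 2 libraries per group. Points lie near 0 in each panel, with Sgsh, which has the lowest counts, farthest from it in the left and right panels.

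The genes with TCACGTG in the promoter and those without it were then set beside the calls of exAM against tAM. Of the 13 genes with the letters, 9 were higher on scaled counts and 0 lower, and 4 (Gla, Naglu, Sgsh and Atp6v1a, printed above) were higher on both scales. Of the 34 genes with a promoter window but without the letters, 23 were higher and 3 lower on scaled counts, and 6 were higher on both scales. The listed pump gene with the largest change, Atp6v0a1, was among those without the letters in this window. Lamp1, with 4 sites, was among the 9 called higher on scaled counts (log2 change 0.46, edgeR adjusted p = 0.00149). Its deposited counts were nearly equal in all libraries. At 1.59 counts per base it lay where this held for most genes, so those counts cannot show whether it changed.

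Lists of other lysosomal pathway genes were counted in the same comparison of exAM with tAM. Their counts are to be read against the 21.5% of all tested genes called higher and 23.2% lower on scaled counts, and the 9.43% and 36.3% on deposited counts. The share called higher on scaled counts rose with counts per base, as given above. Of 27 other hydrolases tested, 13 were higher and 6 lower in exAM than tAM on scaled counts, and 8 and 8 on deposited counts. Hgsnat, the acetyltransferase that acts in heparan sulfate breakdown alongside Naglu and Sgsh, had 658 and 508 counts in tAM, 642 and 640 in texAM, 840 and 823 in HostAM, and 2649 and 2644 in exAM (log2 change 2.62 ± 0.13, edgeR adjusted p = 2.38e-07). Hyal1, a hyaluronidase, and Scpep1, a serine carboxypeptidase, rose by 1.95 ± 0.54 and 1.56 ± 0.11 on the log2 scale, but Hyal1 depended on single libraries. Its log2 change was 1.36 without tAM 1 (edgeR adjusted p = 0.083), 1.30 without exAM 2 (0.153) and 2.96 without tAM 2. Dnase2a, which digests engulfed DNA, fell by 1.29 on the log2 scale, from 1052 and 1013 counts to 308 and 316. Plbd1 had 179 and 207 counts in tAM and 0 and 5 in exAM. The aspartic protease gene Ctse had 8 and 12 counts in tAM, 97 and 43 in texAM, 423 and 430 in HostAM, and 0 and 0 in exAM, where a count of 0 allows up to 3 counts in a library. Ctse was also lower in both donor groups than in HostAM, with log2 changes of -5.29 in tAM and -2.67 in texAM (edgeR adjusted p = 0.0102 and 0.0365). Without any 1 of the libraries of either donor group the matching call was lost, with edgeR adjusted p from 0.0895 to 0.162, and that of texAM also without HostAM 1 (0.104) or HostAM 2 (0.0526). Without texAM 1 the log2 change of texAM was -3.29. Sumf1, which activates sulfatases, was higher in texAM than HostAM by 0.77 on the log2 scale (edgeR adjusted p = 0.0307), a call lost without any 1 of the texAM, tAM or HostAM libraries (0.0525 to 0.179).

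Of 31 other membrane proteins and transporters, 18 were higher and 3 lower on scaled counts, and 8 and 8 on deposited counts. Slc11a1, the metal transporter of phagosomes, had 182 and 95 counts in tAM, 299 and 131 in texAM, 543 and 422 in HostAM, and 841 and 996 in exAM (log2 change 3.17 ± 0.34). The calcium channel gene Tpcn1 rose by 2.30 ± 0.30. The peptide transporter gene Abcb9 had 3 and 0 counts in tAM and 13 and 19 in exAM, and its fitted log2 change of 3.75 ± 1.38 (edgeR adjusted p = 0.048) was unstable. It became 7.39 without tAM 1 and 2.84 without tAM 2, and the call was lost without any 1 of the 8 libraries (0.0561 to 0.231). The amino acid transporter Slc36a1, the phospholipid transporter Spns1 and Cln3 fell by 0.94, 0.82 and 0.63 on the log2 scale. Of 8 other pump subunits tested, 3 were higher (Atp6v0d2, Atp6v1g1 and Atp6v0a2) and 1 lower (Atp6v1g2, 186 and 326 counts in tAM, 30 and 69 in exAM). Atp6v0d2, the macrophage and osteoclast form of the linking subunit, lay at 1.836 counts per base with 4418 to 4905 counts in all libraries. On deposited counts 0 of these 8 were higher and 3 lower. Among those 3 was Tcirg1, with 2194 and 2336 counts in tAM and 1793 and 1540 in exAM (edgeR adjusted p = 0.00856). On scaled counts Tcirg1 was not called (log2 change -0.006 ± 0.13). The scaled call was lost for Atp6v1g1 without either tAM or either exAM library (0.0581 to 0.141), and for Atp6v0a2 without tAM 1, tAM 2 or exAM 1 (0.134, 0.0565 and 0.0836).

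In the list of MiT/TFE factors and the mTORC1 machinery at the lysosome, 9 of 21 genes were higher and 2 lower on scaled counts, and 3 and 5 on deposited counts. Tfeb itself had 936 and 801 counts in tAM, 1033 and 847 in texAM, 1305 and 828 in HostAM, and 278 and 299 in exAM (log2 change -1.16 ± 0.19, edgeR adjusted p = 0.00078). Flcn, part of the complex that controls TFEB through Rag GTPases, fell by 0.69, a call lost without tAM 2 (edgeR adjusted p = 0.053). Rragd, one of those Rag GTPases, had 13 and 30 counts in tAM, 66 and 48 in texAM, 31 and 27 in HostAM, and 395 and 310 in exAM (4.46 ± 0.43, edgeR adjusted p = 2.37e-05, and 5.25 without tAM 2). The partners of Flcn, Fnip1 and Fnip2, rose by 1.41 ± 0.19 and 1.52 ± 0.09. Tfe3, Mitf and Tfec, the other family members, had log2 changes of 0.41, 0.76 and 0.70 on scaled counts and were not called on deposited counts, with edgeR adjusted p = 0.887, 0.167 and 0.0939. They are named as members of the family and not for the size of their changes, and the scaled call of Tfe3 was lost without tAM 1 (0.136) or exAM 1 (0.0857).

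Of 17 genes of sorting to the lysosome, 8 were higher and 5 lower on scaled counts, and 2 and 6 on deposited counts. Igf2r, a mannose 6-phosphate receptor, had 89 and 192 counts in tAM, 358 and 331 in texAM, 192 and 157 in HostAM, and 1091 and 530 in exAM (2.97 ± 0.42, and 3.70 without tAM 2 and 2.27 without exAM 1). M6pr, another such receptor in this list, had 2414 and 2117 counts in tAM and 2321 and 2356 in exAM. Its scaled log2 change was 0.48 ± 0.09, near the 0.43 of an equal count, and it was not called on deposited counts (edgeR adjusted p = 0.726). The retromer gene Vps35 and the adaptor gene Ap3b1 rose by 0.89 ± 0.13 and 0.61 ± 0.08. The sorting receptor gene Sorl1 had 362 and 214 counts in tAM and 7 and 5 in exAM, and Gga1 and Gnptg fell by 1.15 and 1.12. Of 20 genes of fusion and positioning, 9 were higher and 2 lower, and 4 and 6 on deposited counts. Arl8b, the GTPase that moves lysosomes along microtubules, had 1371 and 1317 counts in tAM and 3003 and 3036 in exAM (1.60 ± 0.12), and Vps41 and Stx7, which act in fusion, rose by 1.13 ± 0.15 and 1.09 ± 0.16. Vps16 and Plekhm2 fell by 0.50 and 0.39. The call of Vps16 was lost without any 1 of the tAM, texAM or exAM libraries (edgeR adjusted p = 0.0627 to 0.163), and that of Plekhm2 without tAM 2 (0.166) or exAM 2 (0.189).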

How the data were processed

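The authors' deposited table holds raw read counts per gene for 8 libraries, 37310 rows with Ensembl identifiers and symbols. Per the labels' protocols, RNA from 3 pooled mice or cultures (2 ng) was amplified before library preparation; the submitters' processing notes name Bowtie, HTSeq 0.6.1, R 3.3, mm10 and GRCm38 without roles. Strand use and treatment of duplicate reads are not given in the sources used here. Genes were filtered with filterByExpr (minimum count 10), scaled by TMM and tested in edgeR 4.0.16 (quasi-likelihood, robust, all 8 libraries, 4 residual degrees of freedom; R 4.3.3, limma 3.58.1), with Benjamini-Hochberg adjustment over 14537 genes and a threshold of 0.05. DESeq2 1.42.0 was an alternative, as were other scalings and filters, a replicate block and each library left out. The script was tested on simulated data. Transcript lengths, available for 87.4% of identifiers, and gene positions came from GENCODE (GRCm38), promoters from RefSeq. The scale without library scaling was chosen after seeing the data, and members and lists with earlier results of these data known. Shown in full were the 3 largest called changes per class, and per direction in each pathway list. P-values measure only the spread between pools.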

Additional observations from a re-analysis of the deposited data

How the results depend on the processing

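With 2 pools per group, differences near the SE could not be resolved, and counts near the top of the range per base varied little between libraries. For exAM against tAM, 37 genes higher and 3 lower became 14 and 11 on deposited counts and 10 and 0 at a minimum 2-fold change. They became 15 and 1 when only the 24 lysosomal genes and other genes under 0.5 counts per base entered the fit. The main fit gave 15 and 2 for the same 24 genes, so the smaller numbers there come mostly from the genes left out. For exAM against HostAM, 37 and 2 became 13 and 12, 12 and 0, and 13 and 1 under the same settings in that order, the last again out of 24. For texAM against exAM, 3 higher and 39 lower became 11 and 13, 0 and 11, and 1 and 14 likewise. Without TMM, 30, 30 and 6 genes were higher and 6, 6 and 34 lower in exAM against tAM, exAM against HostAM and texAM against exAM, with medians of 0.26, 0.33 and -0.39. Against HostAM, texAM had 1 gene lower with no filter on low counts and 1 lower by the DESeq2 Wald test.

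On deposited counts 15 of the 54 genes changed sign in exAM against tAM. Of these, 6 were called on neither scale (Ctss, Gaa, Arsa, Asah1, Atp6v1f, Atp6v0b). The other 9, with the pathway genes Atp6v0a2 and Tfe3, were Ctsa (-0.08539), Ctsd (-0.006082), Gusb (-0.33), Hexa (-0.31), Man2b1 (-0.13), Pla2g15 (-0.04598), Npc2 (-0.13), Scarb2 (-0.15), Atp6v0c (-0.42), Atp6v0a2 (-0.07765) and Tfe3 (-0.02276). This scale leaves out the factor that assigns 0.43 to an equal count. The other moves were not tested for a cause.

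Leaving out 1 library gave 29 to 38 genes higher and 2 to 3 lower in exAM against tAM, 31 to 36 and 1 to 2 against HostAM, 1 to 3 higher and 33 to 41 lower in texAM against exAM, and 0 to 0 in the comparisons among lung groups. A group left with 1 library was assumed to vary like the others. With the replicate number as a block, exAM against tAM had 35 higher and 3 lower; the numbers did not pair the samples (correlations of same-numbered deviations -0.0787 to 0.0111).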
